A study of Mus musculus with 6 samples.

Results

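The genes described here encode the enzymes of glycolysis, the carriers of glucose and lactate, and the enzymes and regulator that steer glucose carbon, in mouse bone marrow cultures that give rise to dendritic cells (DC). They were taken from a list of 36 genes. Of these, 33 had a probe under their own symbol, and the probe with the highest mean stood for its gene. A gene counted as measured when that probe was above background (detection p under 0.01) on at least 1 of the 6 arrays, which held for 28 of the 36, against 9913 of 19057 genes on the whole array. No probe carried the symbol Hk2, Gpi1 or Eno1, and these 3 genes were not analysed here.

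Marrow cells of C57BL/6 mice were grown with GM-CSF at 20 ng/ml, and every culture held either the p38 kinase inhibitor SB202190, at 1.5 mM as the labels state it, or its solvent DMSO at 0.1%. The series asks what blocking p38 in the progenitors does to the DC that come from them. RNA was taken from cells cultured for 2 days (pre-DC), from the semi-adherent cells of day 7 (immature DC), and from such cells matured for 48 h by 10 ng/ml of IL-1b together with 10 ng/ml of TNF-a (mature DC). Each of the 6 combinations of stage and treatment was hybridised to 1 single-colour Illumina bead array. No genotype other than the strain, no age and no number of animals is stated in the labels, which also do not say whether the inhibitor was present during maturation.

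All values below are log2 intensities after background correction and quantile normalisation, and a difference of 1 on this scale is 2-fold. Between 14623 and 15328 of 45281 probes were detected per array, and the number of arrays limits the precision. The stage label was checked against DC markers. Itgax, the CD11c integrin chain, was below background on both pre-DC arrays and between 6.43 and 6.87 on the other 4, and Flt3, a DC progenitor receptor, was below background on all 6. Of the 10 DC markers, 7 and 8 were nevertheless detected on the pre-DC arrays with DMSO and SB202190, among them H2-Ab1 of MHC class II (13.60 and 14.10) and the transcription factor Irf4 (8.93 and 9.55). Cd209a, a lectin, was detected in pre-DC and immature DC and below background in mature DC. The sum of the 10 was 32666 and 44498 in pre-DC, 86703 and 100339 in immature DC and 88092 and 95244 in mature DC. The 6 DC maturation markers summed to 3535 and 1472, then 19555 and 35072, then 38159 and 60341. The pre-DC arrays carried a strong granulocyte signal: the summed linear intensity of 11 neutrophil and granule markers was 263935 and 277205 there, 45450 and 59689 in immature DC and 21966 and 23141 in mature DC. The sum of the 7 macrophage markers rose in the first step and was lower again in mature DC, at 2410 and 2549, then 24238 and 26899, then 12534 and 14527. From immature to mature DC 6 of the 7 differences lay below 0, with 3 called lower (11.1% of all genes), and Csf1r lay above 0 at 0.48. The 6 proliferation markers summed to 13471 and 13836, then 3081 and 5118, then 1537 and 1661. In such bulk samples fewer cells of a type and less RNA per cell cannot be told apart, and what these shifts contribute to the differences below was not tested.

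Glycolysis splits glucose into pyruvate in the cytosol. Glucose enters through SLC2A carriers and is trapped by hexokinases, phosphofructokinase commits it to the pathway, and the lower enzymes harvest ATP and NADH. Lactate dehydrogenase turns pyruvate into lactate, which leaves through monocarboxylate carriers, and pyruvate dehydrogenase kinases hold pyruvate back from the mitochondria. The transcription factor HIF-1 induces many of these genes in low oxygen and in activated myeloid cells, and DC are known to raise glycolysis when they are activated.

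From pre-DC to immature DC, the limma fit over all arrays called 15 of the 27 tested glycolysis and transport genes higher (25.6% of all 9221 genes tested) and 2 lower (25.4% of all genes), with 10 not called. The largest rises were those of Aldoc, an aldolase (24.4-fold), Galm, which converts the anomers of hexoses (5.87-fold), and Eno3, an enolase (5.08-fold), while Slc2a3 and Hk3 fell 3.38-fold and 3.35-fold. The median log2 difference over the 27 genes was 0.43, against 0.0018 over all genes. From immature to mature DC, 12 of the 27 were called higher (10.5% of all genes) and 0 lower (11.1% of all genes), with 15 not called. Here the largest rises were those of Pfkl, a phosphofructokinase subunit (2.38-fold), Slc2a1, the GLUT1 glucose carrier (2.27-fold), Slc16a3, the MCT4 lactate carrier (2.11-fold), and Slc2a6, another sugar carrier (2.04-fold). The median was 0.34 against -0.0089 over all genes. In the first step 10 of 10 tested neutrophil and granule markers and 6 of 6 proliferation markers were called lower, and 7 of 7 macrophage markers and 8 of 9 DC markers were called higher. In the second, 9 of 10, 4 of 6, 3 of 7 and 2 of 9 of these lists were called lower and none of their members was called higher. The DC maturation markers, 6 of 6, also rose in the first step, with a median of 3.73 and Ccr7, a migration receptor, at 4.98 (SE 0.42). In the second step 1 of the 6 was called, Cd40, a costimulatory receptor, at 1.43 (SE 0.30), and all 6 differences lay above 0. The arrays labelled immature DC thus already carried a high level of these markers. These counts leave out 9 of the 36 listed genes: 3 without a probe, 5 below background on every array, and Pdk2, which was detected on 1 array. Eno2 and Slc16a3 entered the test through the DC arrays alone, so a difference from pre-DC was built into their selection. In the first step both treatments had the same sign for each of the 17 called genes, and in the second for each of the 12. The fit calls the mean of the 2 treatments and counts disagreement between them as error. The shared sign thus largely follows from the call and is no separate support. Both steps use the immature DC arrays, so their values are not independent of each other.

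The call in both steps was an adjusted p of 0.05 from limma with the Benjamini-Hochberg method, with treatment as a block and 2 arrays a stage. With 1 array fewer the fit keeps 1 residual degree of freedom. Among the genes named next, Eno2 and Slc16a3 lay below background on both pre-DC arrays, so their difference from pre-DC was built into their selection. Without the immature DC array with SB202190 the first count fell from 15 higher to 8 (Aldoc, Eno2, Eno3, Galm, Pdk1, Pfkl, Pgm1 and Slc16a3), and without the pre-DC array with DMSO 4 genes were called lower, Slc2a6 and Pfkfb4 being added to Hk3 and Slc2a3. Without any 1 of the 4 immature or mature DC arrays the second count fell from 12 to 3, which were Pfkl and Slc2a1 with either Slc16a3 or Pgm1.

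**Figure D1:**
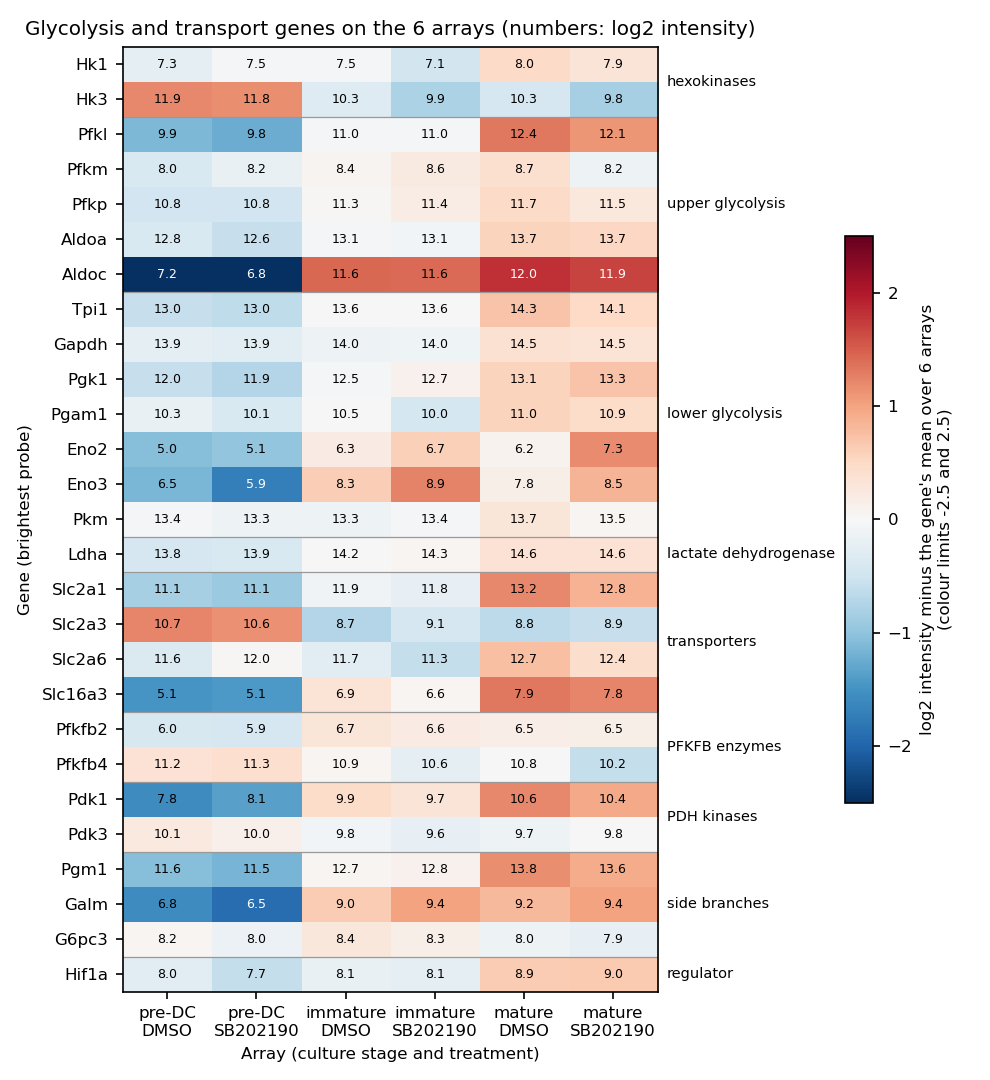
Log2 intensity of the 27 tested glycolysis and transport genes (rows, grouped by role) on the 6 arrays (columns). The number in each cell is the log2 intensity and the colour its distance from the gene's own mean, with colours limited at -2.5 and 2.5; Hk3 and Slc2a3 were highest on the pre-DC arrays, Aldoc, Galm and Pdk1 were lowest there, and Pfkl, Slc2a1, Pgm1 and Slc16a3 had their highest values on the mature DC arrays.

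The 250 bases before the RefSeq start site (GRCm38.p6) are shown for the 3 members with an entry that rose most in each step, and for Hk3, which fell, because these genes carry the largest differences. Capitals mark each ACGTG or GCGTG, the core letters to which HIF-1 is known to bind, on either strand, so that CACGT and CACGC on the printed strand are the same motifs read backwards. The stretches lie at chr11:78322823-78323072 on the plus strand for Aldoc, chr11:70656926-70657175 on the plus strand for Eno3, chr2:71872974-71873223 on the plus strand for Pdk1, chr10:78009808-78010057 on the minus strand for Pfkl, chr4:119108495-119108744 on the plus strand for Slc2a1, chr11:120948817-120949066 on the plus strand for Slc16a3 and chr13:55021386-55021635 on the minus strand for Hk3.
Aldoc: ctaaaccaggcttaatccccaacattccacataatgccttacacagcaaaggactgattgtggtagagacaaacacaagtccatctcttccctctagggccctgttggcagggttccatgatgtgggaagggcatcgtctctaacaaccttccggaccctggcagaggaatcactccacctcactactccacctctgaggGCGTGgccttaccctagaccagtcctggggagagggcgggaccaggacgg
Eno3: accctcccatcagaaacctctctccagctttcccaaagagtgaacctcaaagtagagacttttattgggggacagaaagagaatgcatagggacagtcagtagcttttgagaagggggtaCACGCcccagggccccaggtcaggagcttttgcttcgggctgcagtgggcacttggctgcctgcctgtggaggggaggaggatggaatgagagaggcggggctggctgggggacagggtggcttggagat
Pdk1: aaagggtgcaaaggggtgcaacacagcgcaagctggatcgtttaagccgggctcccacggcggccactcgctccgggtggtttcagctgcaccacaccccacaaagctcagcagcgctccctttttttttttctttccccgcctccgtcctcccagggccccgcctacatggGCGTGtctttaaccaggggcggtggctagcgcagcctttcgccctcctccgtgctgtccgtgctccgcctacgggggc
Pfkl: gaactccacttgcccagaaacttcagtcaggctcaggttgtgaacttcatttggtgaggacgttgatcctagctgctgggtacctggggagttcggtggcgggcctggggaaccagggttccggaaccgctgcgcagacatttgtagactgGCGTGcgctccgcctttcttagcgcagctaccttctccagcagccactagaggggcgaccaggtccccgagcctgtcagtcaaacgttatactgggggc
Slc2a1: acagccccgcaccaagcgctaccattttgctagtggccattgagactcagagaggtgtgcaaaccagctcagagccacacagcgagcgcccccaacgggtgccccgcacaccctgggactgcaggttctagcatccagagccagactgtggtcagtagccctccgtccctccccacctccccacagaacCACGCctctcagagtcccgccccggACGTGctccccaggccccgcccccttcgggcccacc
Slc16a3: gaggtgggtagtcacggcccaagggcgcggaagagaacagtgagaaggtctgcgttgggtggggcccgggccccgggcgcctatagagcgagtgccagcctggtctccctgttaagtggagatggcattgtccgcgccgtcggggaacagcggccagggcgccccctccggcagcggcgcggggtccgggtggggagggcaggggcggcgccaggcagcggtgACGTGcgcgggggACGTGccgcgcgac
Hk3: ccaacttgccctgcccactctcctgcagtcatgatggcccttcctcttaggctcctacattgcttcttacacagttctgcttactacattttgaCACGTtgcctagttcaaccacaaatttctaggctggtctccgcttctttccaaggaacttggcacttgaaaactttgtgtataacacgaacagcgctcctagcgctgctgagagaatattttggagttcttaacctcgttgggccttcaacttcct

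Each of these 7 stretches held at least 1 of the motifs, Hk3 included, and Slc16a3 held 2 ACGTG, both near the end of the stretch, and no GCGTG. At least 1 of the motifs was also found before 57.2% of the genes tested on the arrays with an entry, and before 80.0% of the tested members. Over the 25 tested members with a promoter entry, ACGTG was found before 11 (44.0%) and GCGTG before 12 (48.0%). Of 7571 genes tested on the arrays with an entry, 22.3% had ACGTG and 45.7% had GCGTG, with a median GC content of 59.6% against 58.8% for the members. A palindromic CACGTG counts as a match on each strand. Galm and Slc2a3 had no entry. A match is a description of letters and does not show binding.

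Of the hexokinases, Hk3 fell in the first step and Hk1 was called in neither. Hk3, the hexokinase of myeloid cells, had log2 intensities of 11.87 and 11.84 on the pre-DC arrays with DMSO and SB202190, 10.35 and 9.88 in immature DC, and 10.26 and 9.83 in mature DC. Both pre-DC values lay above all DC values, and the fall of 1.74 (SE 0.16, limma adjusted p = 7.17e-04) was followed by -0.07 (SE 0.16) in the second step. The neutrophil and granule markers, 10 of 10 tested, also fell in the first step, by a median of 3.30. In the same step 6 of 6 proliferation, 5 of 5 mast cell and basophil and 4 of 4 B cell markers were called lower. There 7 of 7 macrophage and 8 of 9 DC markers were called higher. What any of these lists contributes to the Hk3 values was not tested. Hk1, the housekeeping hexokinase, had 7.31 and 7.51, then 7.49 and 7.08, then 8.03 and 7.86. Its values in pre-DC and immature DC overlapped, and those in mature DC lay above both, with a difference from immature DC of 0.66 (SE 0.18, limma adjusted p = 0.0503) that missed the threshold and passed it in 6 of 9 other settings. A second Hk1 probe gave -0.57 and 1.08 for the steps.

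Of the 3 phosphofructokinase genes, which encode the liver, muscle and platelet subunits, Pfkl had the clearest course. It stood at 9.92 and 9.80 in pre-DC, 11.00 and 10.99 in immature DC and 12.35 and 12.15 in mature DC, with no overlap between stages. Its rises were 1.14 (SE 0.13, limma adjusted p = 0.00137) and 1.25 (SE 0.13, limma adjusted p = 0.00358). A dimmer Pfkl probe, above background on 3 arrays, gave 0.45 and 0.705. Pfkp had 10.76 on both pre-DC arrays, 11.26 and 11.43 in immature DC and 11.70 and 11.49 in mature DC, so it rose in the first step (0.58, SE 0.15, limma adjusted p = 0.0201) and had 0.25 (SE 0.15) in the second. Pfkm ran from 7.96 on the pre-DC array with DMSO to 8.74 on the mature DC array with DMSO and passed in neither step (0.43, SE 0.21, and -0.01, SE 0.21).

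The aldolases cleave the hexose bisphosphate. Aldoc had 7.16 and 6.82 in pre-DC, 11.61 and 11.58 in immature DC, and 11.99 and 11.85 in mature DC. The pre-DC arrays were thus far below the other 4, and the DMSO and SB202190 arrays gave the first step separately as 4.46 and 4.77. The difference was 4.61 (SE 0.14, limma adjusted p = 1.22e-04), and in the second step it was 0.32 (SE 0.14). That adjusted p was the smallest of the first step, but other genes shared it, among them Elane and C1qa, whose unadjusted limma p was lower. With the mean of both Aldoc probes the first difference was 3.0025, since the dimmer probe gave 1.39. Aldoa, the aldolase of most tissues, had 12.78 and 12.58, then 13.12 and 13.09, then 13.71 and 13.68. Its stages did not overlap, and the rises were 0.43 (SE 0.13, limma adjusted p = 0.0364) and 0.59 (SE 0.13, limma adjusted p = 0.0277). The first call ended without the detection filter (adjusted p = 0.0617).

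In lower glycolysis, Tpi1, Pgk1, Eno2 and Eno3 were called higher in the first step, and Tpi1, Gapdh, Pgk1 and Pgam1 in the second. For Eno2 the difference from pre-DC was built into its selection. Tpi1, the triose phosphate isomerase, had 13.04 and 12.97, then 13.61 and 13.62, then 14.33 and 14.11, with rises of 0.61 (SE 0.13, limma adjusted p = 0.0117) and 0.60 (SE 0.13, limma adjusted p = 0.0276). A second bright Tpi1 probe gave 0.64 and 0.63, but a dim one gave -0.24 and 0.56, and the mean of all 3 gave 0.34 in the first step. Pgk1, which makes ATP as phosphoglycerate kinase, had 12.00 and 11.86, then 12.53 and 12.69, then 13.14 and 13.30. Its stages did not overlap (0.68, SE 0.14, and 0.60, SE 0.14), and both calls ended with the mean of all its probes (adjusted p = 0.268 and 0.0788). Its dimmer probes were above background on 3 arrays and on none.

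Gapdh, the dehydrogenase step that yields NADH and a frequent reference gene, lay at 13.93 and 13.89, then 14.02 and 14.04, then 14.53 and 14.49. It rose in maturation by 0.48 (SE 0.12, limma adjusted p = 0.0437) after 0.12 (SE 0.12) in the first step. The call ended with the authors' processed values (adjusted p = 0.0528) and without the detection filter (adjusted p = 0.0715). Pgam1, phosphoglycerate mutase, had 10.30 and 10.10, then 10.46 and 10.03, then 11.03 and 10.92. Pre-DC and immature DC overlapped and mature DC stood above them (0.73, SE 0.14, limma adjusted p = 0.0199). Gapdh, Pgk1, Pgam1, Tpi1, Aldoa and Ldha are known to have processed pseudogenes, so part of their signal may come from near-identical copies.

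Of the measured enolases, Eno3 rose in the first step and Eno2 was detected on the DC arrays alone. Eno3, the muscle enolase, had 6.50 and 5.94 in pre-DC, 8.26 and 8.87 in immature DC and 7.79 and 8.48 in mature DC. Immature and mature DC overlapped, and the rise from pre-DC was 2.35 (SE 0.32, limma adjusted p = 0.00244), or 1.40 without background correction. Eno2, the neuronal enolase, was below background on both pre-DC arrays and had 6.29 and 6.69 in immature DC and 6.18 and 7.28 in mature DC. It was at least 2.07-fold higher in immature DC than in pre-DC. Eno2 entered the test through the DC arrays alone, so this difference was built into its selection. Its fitted difference of 1.42 was 0.51 without background correction. Pkm, the pyruvate kinase gene, ran from 13.28 to 13.71 over the 6 arrays and passed in neither step (0.02, SE 0.14, and 0.24, SE 0.14), though a dimmer Pkm probe gave 0.06 and 1.10. With the mean of both probes Pkm passed in maturation at 0.67 (adjusted p = 0.0142).

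Ldha, the lactate dehydrogenase subunit that favours lactate production, had 13.82 and 13.86, then 14.23 and 14.29, then 14.60 and 14.59. Its stages did not overlap, and it rose by 0.42 in the first step (SE 0.12, limma adjusted p = 0.0333), with 0.34 (SE 0.12, limma adjusted p = 0.104) in the second. The first call ended without the detection filter (adjusted p = 0.0568), and the second step passed without background correction (adjusted p = 0.0286). The Ldhb probe was below background on every array. It was designed on a cDNA clone and not on a RefSeq transcript, per the platform annotation, as was the brighter of the Bpgm probes.

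The glucose carriers changed in opposite directions. Slc2a1 had 11.15 and 11.06 in pre-DC, 11.90 and 11.78 in immature DC and 13.19 and 12.85 in mature DC. No stages overlapped, and the rises were 0.73 (SE 0.13, limma adjusted p = 0.00678) and 1.18 (SE 0.13, limma adjusted p = 0.00478). Slc2a3, the high-affinity carrier GLUT3, had 10.71 and 10.62 in pre-DC, 8.75 and 9.06 in immature DC and 8.82 and 8.90 in mature DC.

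Slc2a3 was thus high on the pre-DC arrays alone, and fell by 1.76 (SE 0.15, limma adjusted p = 5.87e-04) in the first step. The neutrophil and granule, proliferation, mast cell and basophil, and B cell markers fell in that step too, while macrophage and DC markers rose. What these lists contribute to the Slc2a3 values was not tested. In maturation Slc2a3 had -0.04 (SE 0.15). Slc2a6, a lysosomal sugar carrier of macrophages, had 11.58 and 11.96, then 11.65 and 11.34, then 12.69 and 12.37. Its mature DC values lay above the other 4, which overlapped, and it rose in maturation by 1.03 (SE 0.21, limma adjusted p = 0.0228), after -0.27 (SE 0.21) in the first step.

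The lactate carrier Slc16a3 was below background on both pre-DC arrays and had 6.94 and 6.63 in immature DC and 7.91 and 7.82 in mature DC. It was at least 2.55-fold higher in immature than in pre-DC. It entered the test through the DC arrays alone, so this difference was built into its selection. In maturation Slc16a3 rose by a further 1.08 (SE 0.14, limma adjusted p = 0.00702). The steps, 1.66 and 1.08, were 0.63 and 0.64 without background correction and 0.54 and 0.51 with the mean of its 3 probes, of which 2 were below background. The probe of Slc16a1, the carrier MCT1, was below background on all arrays.

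Among enzymes that set the level of the fructose bisphosphate messenger of phosphofructokinase, Pfkfb2 rose in the first step. Its values were 5.96 and 5.94, then 6.66 and 6.57, then 6.53 and 6.50, close above background throughout (0.67, SE 0.12, limma adjusted p = 0.00673), the difference was 0.28 without background correction, and the call ended with the mean of its 3 probes (0.20, adjusted p = 0.279), of which 2 were below background. Pfkfb4 had 11.18 and 11.26, then 10.87 and 10.61, then 10.82 and 10.24, with -0.48 (SE 0.18, limma adjusted p = 0.0744) and -0.21 (SE 0.18) for the steps. Over the whole course it fell by 0.69 (SE 0.18, limma adjusted p = 0.0199). Pfkfb3 was below background on every array.

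Pdk1, the pyruvate dehydrogenase kinase that HIF-1 is known to induce, had 7.85 and 8.07 in pre-DC, 9.88 and 9.75 in immature DC and 10.62 and 10.37 in mature DC. The stages did not overlap, with rises of 1.85 (SE 0.16, limma adjusted p = 6.43e-04) and 0.68 (SE 0.16, limma adjusted p = 0.0350). With the mean of both probes these were 1.15 and 1.20, and the second call ended without the detection filter (adjusted p = 0.0551). Pdk3 ran between 9.62 and 10.07 and passed in neither step (-0.32, SE 0.14, and 0.07, SE 0.14). Pdk2 was detected on the immature DC array with SB202190 alone, at 5.76.

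In the side branches, Pgm1, the phosphoglucomutase that links glycolysis with glycogen, had 11.61 and 11.50, then 12.71 and 12.77, then 13.82 and 13.60. The stages did not overlap, and the rises were 1.19 (SE 0.14, limma adjusted p = 0.00142) and 0.97 (SE 0.14, limma adjusted p = 0.00842), with 1.01 and 1.40 from a second probe. In older mouse nomenclature the symbols Pgm1 and Pgm2 stood for each other's gene, and the symbols used here match the RefSeq table. Galm had 6.81 and 6.48, then 9.01 and 9.39, then 9.20 and 9.38, so that the pre-DC arrays were low and the other 4 overlapped. Its differences were 2.55 (SE 0.19, limma adjusted p = 4.64e-04) and 0.09 (SE 0.19). G6pc3, a glucose phosphatase of the endoplasmic reticulum that neutrophils need, ran from 7.92 to 8.40 and passed in neither step (0.28, SE 0.12, and -0.38, SE 0.12). Pgm2 and Bpgm, the latter an enzyme of red cells, were below background on all arrays.

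Hif1a, the oxygen-regulated subunit of HIF-1, had 8.02 and 7.71 in pre-DC, 8.13 and 8.09 in immature DC and 8.94 and 8.96 in mature DC. The mature DC arrays stood above the rest, and the transcript rose in maturation by 0.84 (SE 0.14, limma adjusted p = 0.0136) after 0.24 (SE 0.14) in the first step. A dimmer Hif1a probe, above background on 3 arrays, gave 0.67 and 0.88 for the steps. Another, below background on every array, gave -0.13 and 0.48. HIF-1 is mainly controlled through the stability of the Hif1a protein, which arrays do not measure.

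**Figure D2:**
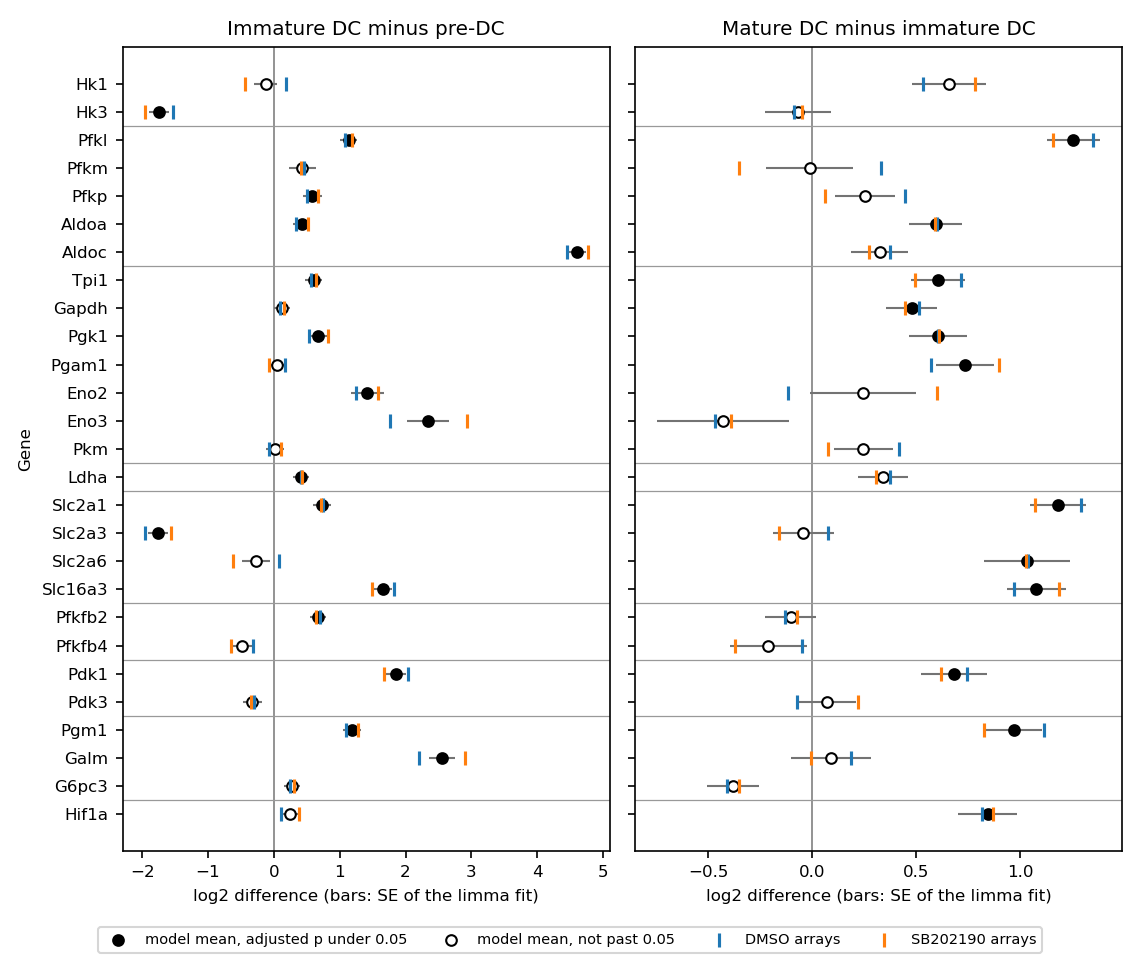
Log2 difference of each tested gene for immature DC minus pre-DC (left) and mature DC minus immature DC (right). Circles are the means of the limma fit with their SE as bars, filled where the adjusted p was under 0.05, and the ticks give the DMSO and the SB202190 arrays separately; on the left Aldoc lies farthest right at 4.61 and Slc2a3 farthest left at -1.76, and on the right Pfkl lies at 1.25 and Slc2a1 at 1.18.

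Over the whole course, mature DC against pre-DC, 20 of the 27 genes were called higher (30.8% of all genes) and 3 lower (30.4% of all genes). This comparison uses the arrays of both steps and is no separate evidence. Eno2 and Slc16a3 were among the 20 and lay below background on both pre-DC arrays, so their difference was built into their selection. The genes called lower were Hk3 (-1.81, SE 0.16), Slc2a3 (-1.80, SE 0.15) and Pfkfb4. Those not called were Pfkm, Pkm, Pdk3 and G6pc3. The largest log2 differences were 4.93 (SE 0.14) for Aldoc, 2.64 (SE 0.19) for Galm, 2.53 (SE 0.16) for Pdk1 and 2.39 (SE 0.13) for Pfkl.

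Genes that border on glycolysis did not share one course. The mitochondrial entry of pyruvate and the TCA cycle, 15 tested genes, had 5 called lower (25.4% of all genes) and 1 higher (25.6%) in the first step. In the second, 2 were lower (11.1% of all genes) and 1 higher (10.5%), and the medians of the 2 steps were -0.29 and -0.20. Idh3a, a subunit of isocitrate dehydrogenase, fell by 1.23 (SE 0.14, limma adjusted p = 0.00142) in the first step, Mdh2, malate dehydrogenase, by 0.70 (SE 0.12) and Pdhb, a subunit of pyruvate dehydrogenase, by 0.64 (SE 0.15). Pdp1, the phosphatase that opposes the PDH kinases, rose by 0.47 (SE 0.13) in the first step and fell by 0.56 (SE 0.13) in the second, in which Fh1, fumarase, fell by 0.72 (SE 0.13) and Dld rose by 0.59 (SE 0.13). Of 6 pentose phosphate genes, 3 fell (25.4% of all genes) and 1 rose (25.6%) in the first step. Rpia, which isomerises ribose phosphate, fell by 1.68 (SE 0.13, limma adjusted p = 4.50e-04), Tkt, transketolase, by 0.73 (SE 0.14) and Rpe by 0.51 (SE 0.17), while Pgls rose by 0.59 (SE 0.13). In the second step none of the 6 passed in limma, though 3 had an unadjusted p under 0.05.

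Of the 6 glycogen genes tested, 1 was called higher (25.6% of all genes) and 1 lower (25.4%) in the first step. In the second, 2 were called higher (10.5% of all genes) and 0 lower (11.1%). Gyg, the primer of glycogen chains, rose by 1.37 (SE 0.13, limma adjusted p = 7.86e-04) and Pygl, a glycogen phosphorylase, fell by 0.55 (SE 0.14) in the first step. Gys1, glycogen synthase, rose by 1.55 (SE 0.18, limma adjusted p = 0.00484) and Gbe1, the branching enzyme, by 0.96 (SE 0.14) in the second. Of 4 tested paralogs and related enzymes, Slc2a8, another sugar carrier, rose by 1.33 (SE 0.12) and Gpd2, the mitochondrial glycerol phosphate dehydrogenase, fell by 0.59 (SE 0.15) in the first step, and Gpd2 rose by 0.72 (SE 0.15) in the second. The probe for Ldhc, a paralog of Ldha, fell by 0.69 (SE 0.14) and 0.85 (SE 0.14).

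Of 15 tested HIF regulators and targets outside the glycolysis list, 10 were called higher (25.6% of all genes) and 1 lower (25.4%) in the first step. In the second, 11 were called higher (10.5% of all genes) and 0 lower (11.1%), and the medians of the 2 steps were 0.81 and 0.997. P4ha2, a collagen prolyl hydroxylase, was below background in pre-DC and at least 3.43-fold higher in immature DC. It entered the test through the DC arrays alone, so its place among the 10 was built into its selection. Ndrg1, a stress-responsive gene, rose by 2.03 (SE 0.17) and P4ha1 by 1.68 (SE 0.15). In maturation Ddit4, an inhibitor of mTOR signalling, rose by 3.86 (SE 0.15, limma adjusted p = 9.19e-04) after a fall of 0.58 (SE 0.15) in the first step, Vegfa, the vascular growth factor, rose by 2.45 (SE 0.13) and Ankrd37 by 2.35 (SE 0.14). Vegfa had 7.81 and 7.87, then 9.39 and 9.46, then 11.92 and 11.83. No differences between lists were tested.

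**Figure D3:**
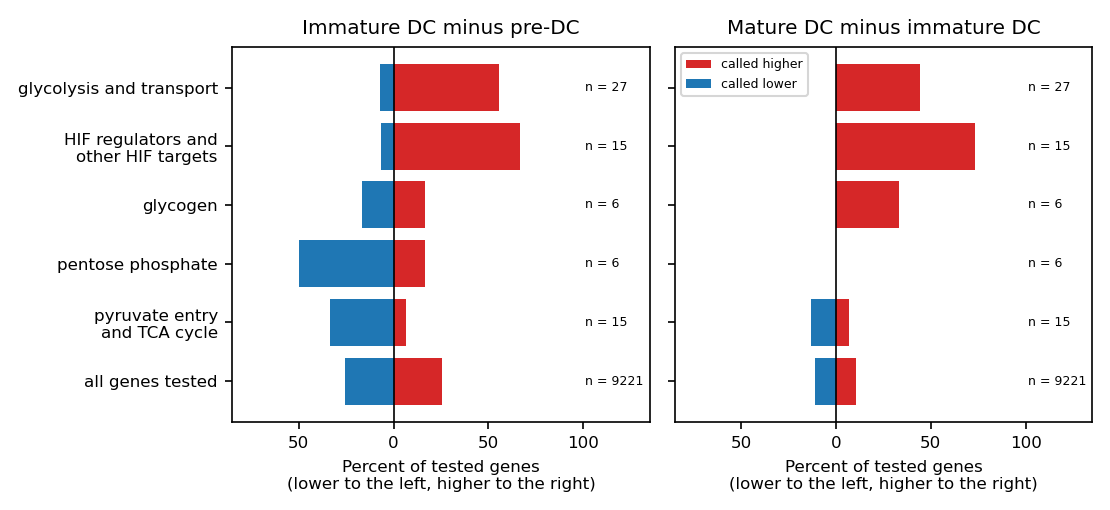
Percent of tested genes called higher (red, to the right) or lower (blue, to the left) at a limma adjusted p under 0.05, for glycolysis and transport, neighbouring lists and all genes, with the number tested at the right of each bar. In immature DC minus pre-DC 15 of 27 glycolysis and transport genes were higher (25.6% of all genes). There 5 of 15 pyruvate entry and TCA cycle genes were lower (25.4%). In mature minus immature DC 12 of 27 and 11 of 15 HIF genes were higher (10.5% of all genes).

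SB202190 made no called difference in any glycolysis or transport gene. Across the 3 stage pairs, limma with stage as a block called 0 of the 27 genes in either direction (0% of all genes), and 1 of the 27, Eno2, had an unadjusted p under 0.05. The lowest adjusted p among the 27 was 0.533. The mean difference lay below 0 for 21 genes and above 0 for 6, against 4478 and 4743 of all 9221 genes. The median was -0.08 against 0.01 over all genes. The fit counts a response that differs by stage as error, so a gene that answers in 1 stage is unlikely to pass. Over all genes 854 had an unadjusted p under 0.05 and 0 were called. Without the pre-DC pair 19 genes of the array were called higher and 22 lower, and 0 of the 27.

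The mean differences lay between -0.31 and 0.52, and none passed the adjusted threshold. Slc2a1 had -0.18 (SE 0.11), Hk3 -0.31 (SE 0.13), Pgam1 -0.25 (SE 0.11), Pfkl -0.11 (SE 0.10), Pdk1 -0.05 (SE 0.13), Hif1a -0.11 (SE 0.12) and Ldha 0.03 (SE 0.10). Eno2 had 0.52 (SE 0.21), with pair differences of 0.39 in immature DC and 1.11 in mature DC, while its pre-DC pair lay below background on both arrays. Lower values with SB202190 in all 3 pairs were found for 8 of the 27 genes (15.1% of all genes) and higher values in all 3 for 1 (17.0% of all genes). The 8 were Hk3, Pfkl, Aldoa, Aldoc, Pgam1, Slc2a1, Pfkfb2 and G6pc3, and the other was Eno2.

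Within single pairs there is 1 array on each side and no test. In pre-DC the median difference of the 25 measured members was -0.08, against 0.02 over all genes, and 0 of them differed by 1.5-fold in either direction (1.97% of all genes higher and 2.56% lower). In immature DC the median of 28 members was -0.02 against 0.01, with 2 at least 1.5-fold higher (4.40% of all genes), Eno3 at 0.61 and Pdk2, and 0 lower (4.44%). Pdk2 was below background on the DMSO array of this pair and counted as measured through the SB202190 array alone. Its higher value was thus built into its selection. In mature DC the median of 27 was -0.11 against -0.01, with 2 at least 1.5-fold higher (5.44% of all genes), Eno2 at 1.11 and Eno3 at 0.69, and 0 lower (6.38%). The lowest member there was Pfkfb4 at -0.58, followed by Pfkm at -0.52 and Hk3 at -0.43. Averaged over the 3 pairs, the neutrophil and granule markers had a median of -0.21, below 0 for 10 of 10. The proliferation markers had -0.28, below 0 for 6 of 6, and none of either list was called in limma (lowest adjusted p of 0.469 and 0.519). In the same average the 9 DC markers lay above 0 with a median of 0.43 (lowest adjusted p of 0.445). In the mature DC pair alone the neutrophil and granule sum was 23141 with SB202190 against 21966 with DMSO. The proliferation sum there was 1661 against 1537. Both sums were lower with SB202190 in the pre-DC and immature DC pairs. The part of these lists in the members' values was not tested.

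**Figure D4:**
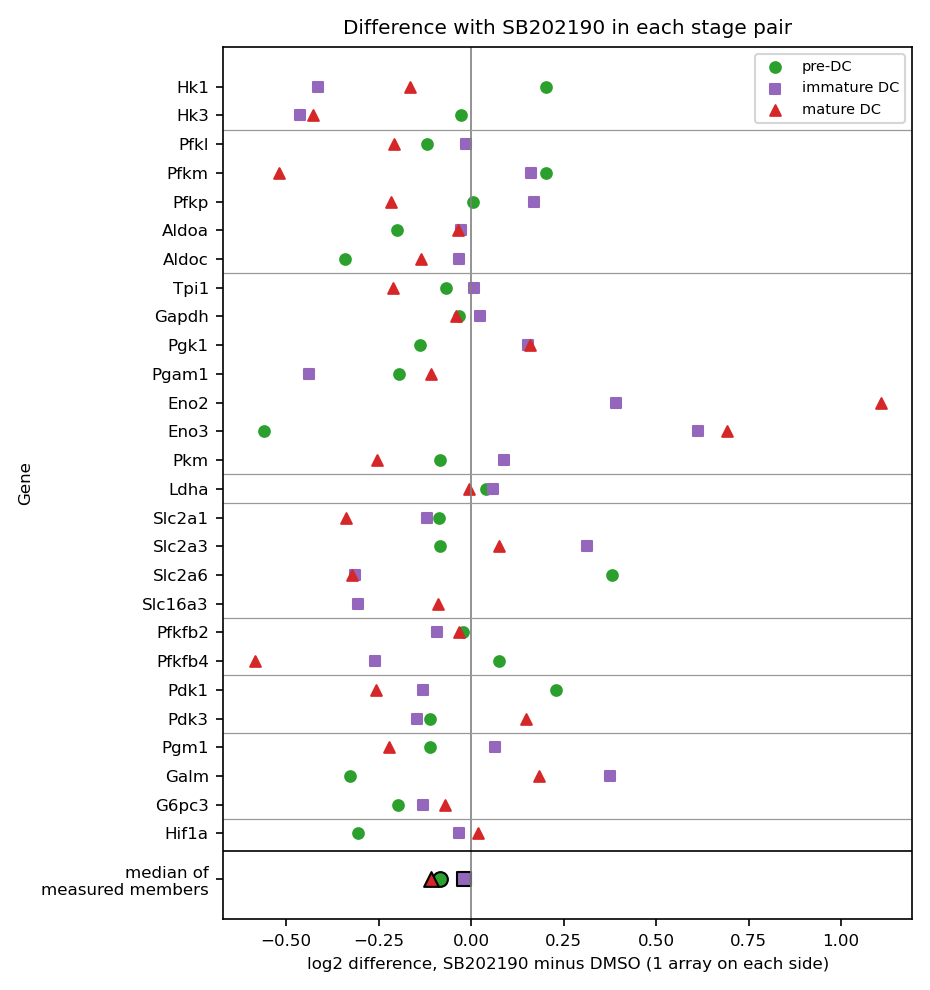
Log2 difference of SB202190 minus DMSO for each tested gene in the pre-DC, immature DC and mature DC pair, shown where at least 1 array of the pair was above background, with the median of the measured members below the line (for immature DC it includes Pdk2, which has no row). Most points lie within 0.5 of 0, the medians are -0.08, -0.02 and -0.11, and Eno2 in mature DC lies farthest from 0 at 1.11.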

How the data were processed

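The 6 arrays were single-colour Illumina bead arrays. The authors deposited intensity values that were not normalized, per the file headers the mean bead signal of each probe, with a detection p-value for each probe and array, also deposited per the file headers. The deposited series table holds processed intensity values of the same arrays on a linear scale, with column medians of 7.89 (DMSO) and 7.88 (SB202190) in pre-DC, 7.89 and 7.88 in immature DC, and 7.85 and 7.89 in mature DC. The rank correlation of a column was 1 with the same sample's array and at most 0.881 with any other. Neither the scanner software nor the way the authors made these values is stated in the labels or headers. The table was used as an alternative.

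Intensities were corrected with normexp using the detection p-values (offset 16), quantile normalized and log2 transformed with limma 3.58.1 in R 4.3.3. Of the probes, 34885 had 1 symbol in the platform annotation, 18 had several and 10378 were unnamed; 99.7% of the Entrez identifiers were in the RefSeq table and 0 symbols differed. Genes detected (p under 0.01) on at least 2 arrays were tested, 9221 in all, in 1 additive model of stage and treatment with 2 residual degrees of freedom and a prior of 3.73, moderated by eBayes. The code was tested on simulated data. Each combination of stage and treatment had 1 array, so the residual holds treatment differences that vary by stage, mixed with noise. The labels do not say that the cultures were independent. The p-values thus cover only this spread among the 6 arrays, which can be partly technical, and none between cultures of 1 condition. Nothing in the labels or files gives a slide or scan batch. Where every array of a stage was below background, the fold is written as "at least", and the dim side is, per array, the higher of the probe's own value and the dimmest detected probe. The members, the lists, the tests and the rule for naming genes (each member, and up to 3 called genes a direction from each neighbouring list) were chosen with earlier results of these data known. Alternatives were no background correction, an offset of 50, scaling to the 75th percentile, the authors' values with a floor of 16, detection on all arrays or no detection filter, the mean of all probes, trend and robust moderation, no block, and leaving out arrays. No genome was used, and promoter sequences and their coordinates are those of the RefSeq table.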

Additional observations from a re-analysis of the deposited data

Results flagged for a closer look

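In 3 genes the difference between SB202190 and DMSO pointed one way in pre-DC and the other way in a later stage, by at least 0.3 on the log2 scale on each side. Eno3 had -0.56 in pre-DC, 0.61 in immature DC and 0.69 in mature DC. Slc2a6 had 0.38, -0.31 and -0.32. Galm had -0.33 in pre-DC and 0.38 in immature DC. Each value rests on 1 array on each side, so the difference between stages was not tested.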

How the results depend on the processing

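The counts of called glycolysis and transport genes stayed within 1.5 times their value in every setting that kept all arrays, except that 4 genes were called lower from pre-DC to immature DC without background correction, against 2. Leaving out 1 array gave between 8 and 16 genes higher and between 2 and 4 lower for that step, between 3 and 13 higher and 0 lower for maturation, between 18 and 20 higher and between 2 and 3 lower for the whole course, and 0 in either direction for SB202190. Over all genes the maturation calls also fell, to as few as 246 higher against 964, in fits with 1 residual degree of freedom in place of 2. With 1 treatment alone no degree of freedom is left, so those steps are values without a test, in which 8 differences of the first step and 2 of the second moved by more than the spread. The median of the members with SB202190 in mature DC went from -0.11 to -0.16 with 75th percentile scaling, and the cause was not tested. For single genes, in settings that kept both treatments and all arrays, the first step lost the calls of Aldoa, Pgk1, Ldha and Pfkfb2 and gained Pfkfb4 and Pdk3 in at least 1 setting each, the second lost Gapdh, Pgk1 and Pdk1 and gained Hk1, Aldoc, Pkm and Ldha, and no called value reversed. No scaling moved the median of all genes by 0.1. The labels give no replicate numbers, so samples could not be paired by animal or culture. The design itself sets SB202190 against DMSO within each stage, and the stages with treatment as a block. Without that block the calls in immature DC against pre-DC went from 2357 and 2344 to 2242 and 2260 genes.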
